A study of Homo sapiens with 6 samples.

Results

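The 10 genes described here encode receptor tyrosine kinases of the FGF family (FGFR1, FGFR2, FGFR3 and FGFR4), of the hepatocyte growth factor (MET), of insulin and its growth factors (INSR and IGF1R), of the TAM family (AXL and MERTK) and of the ROR family (ROR1). They were taken by gene name, and all 10 were found among the 26475 genes of the deposited expression table. Messenger RNA was sequenced in 6 libraries, 2 each of PC9-AMG, PC9-BrM4 and PC9 cells, and every one of them was kept in MGS. PC9 is an EGFR-mutant human lung adenocarcinoma cell line, and the other names mark derivatives of it. AMG, BrM4, MGS and the word mix in the library names are not spelled out in the labels, which also leave unsaid how the derivatives were made, whether they are clones and whether a line's libraries came from separate cultures. The p-values therefore measure the spread between libraries, which may be technical.

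A receptor tyrosine kinase is a single-pass membrane protein that pairs when its ligand binds, phosphorylates its own tail and passes the signal to the RAS-ERK and PI3K-AKT pathways. In lung cancer with mutant EGFR, the growth of a cell can come to rest on another such receptor when EGFR is blocked, and MET, AXL, IGF1R and the FGF receptors are the textbook cases of this bypass. MERTK, like AXL, binds GAS6 and is best known for the clearance of dying cells. ROR1 is an embryonic receptor for WNT5A with little kinase activity of its own.

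Levels are in TPM, a unit scaled to gene length and to a fixed total per library. A difference is that of 2 lines' mean log2(TPM + 1), given with its standard error (SE). A gene was called where limma gave an adjusted p (Benjamini-Hochberg) below 0.05 among 14627 genes tested, those reaching 1 TPM in 2 or more libraries. The depth is unknown, as no file gives read counts; 13848 to 14171 genes per library reached 1 TPM. The mean per-base coverage of the 9 members above 0 lay between 0.746 (FGFR1 in PC9) and 101.0 (MET in PC9-AMG). The epithelial genes EPCAM and KRT8 were high in every library, at no less than 634 and 2798 TPM. Of the markers of glia, GFAP (astrocytes), CX3CR1 and TYROBP (microglia), and MOG (oligodendrocytes) were listed at 0 in all 6 libraries. Other genes of those lists were not: ALDH1L1 (astrocytes) was at 18.3 to 32.8 TPM, ITGAM (microglia) at 3.36 to 8.54 TPM, and the oligodendrocyte list summed to 20.7 to 26.8 TPM. In bulk libraries, fewer cells with a transcript and less transcript per cell cannot be told apart.

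PC9-BrM4 stood apart by 2 receptor genes, FGFR3 and ROR1, which were several times higher there than in PC9 and also well above PC9-AMG. MERTK was the only member called in PC9-AMG against both other lines, at 1.997 times its PC9 level in mean TPM, with both calls near the threshold. IGF1R was lowest in PC9-AMG without overlap, but was called only against PC9-BrM4. AXL and MET, by far the most abundant of the 10, were not called in any comparison, and FGFR2 was listed at 0 throughout. In PC9-AMG against PC9-BrM4, 1 of the 9 tested genes was higher (MERTK) and 3 were lower (FGFR3, ROR1 and IGF1R), where limma called 18.6% of all tested genes, 6.31% higher and 12.3% lower. In PC9-AMG against PC9, 1 was higher (MERTK) and 0 were lower, beside 7.49% of all genes, 3.67% higher and 3.82% lower. In PC9-BrM4 against PC9, 3 were higher (FGFR3, ROR1 and FGFR1) and 0 were lower, beside 16.3% of all genes, 9.89% higher and 6.45% lower. The comparisons with PC9 share its libraries. The median difference of the 9 genes was -0.33 in PC9-AMG against PC9-BrM4, 0.23 in PC9-AMG against PC9 and 0.10 in PC9-BrM4 against PC9, against -0.13, -0.05 and 0.09 over all tested genes. Leaving out a library moved the members' medians to between -0.55 and -0.07, 0.12 and 0.35, and -0.06 and 0.29 in the same order of comparisons, and median centring to -0.15, 0.30 and -0.01. The split of all calls moved with the scaling: centring on the median gave 1606 higher and 900 lower genes in place of 923 and 1797 in PC9-AMG against PC9-BrM4, 685 and 436 in place of 537 and 559 in PC9-AMG against PC9, and 917 and 1293 in place of 1446 and 943 in PC9-BrM4 against PC9. It shifted the median of all genes to 0.04 in the first and to -0.02 in the last.

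**Figure D1:**
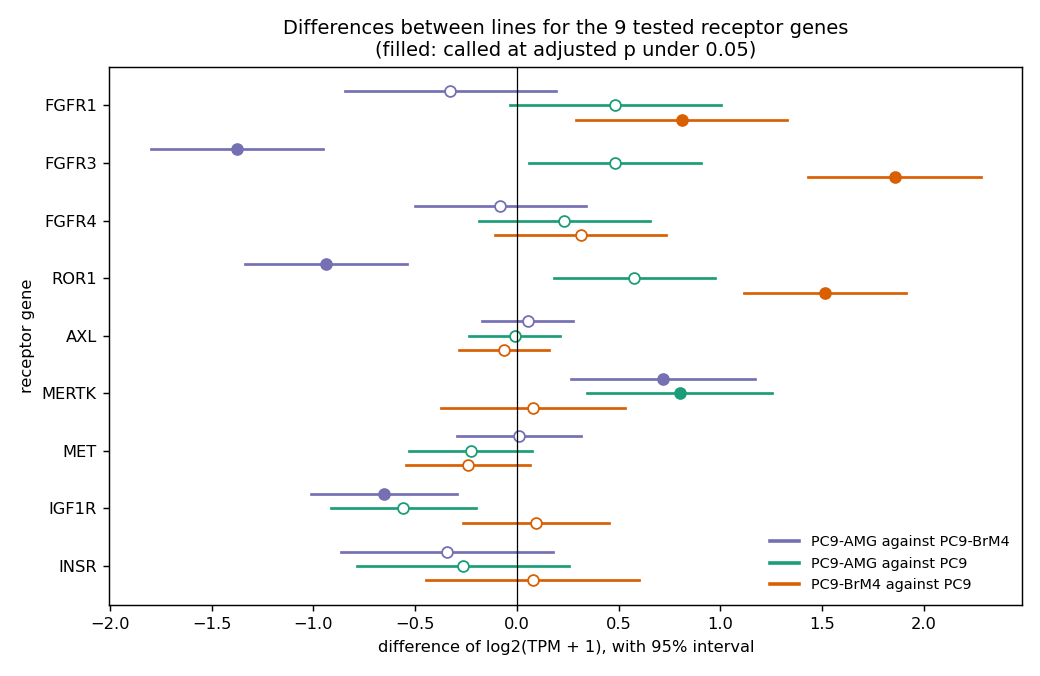
Differences of log2(TPM + 1) for the 9 tested receptor genes (x axis) in the 3 comparisons, with bars for the 95% interval of the limma fit and filled points for called genes. FGFR3 and ROR1 are furthest to the right in PC9-BrM4 against PC9, at 1.86 and 1.52, and furthest to the left in PC9-AMG against PC9-BrM4.

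AXL and MET made up between 81.6% and 89.8% of the summed TPM of the 10 genes in a library. The other 8 together held 43.5 and 37.4 TPM in PC9-AMG, 71.3 and 57.4 TPM in PC9-BrM4, and 36.4 and 38.5 TPM in PC9, so both PC9-BrM4 libraries lay above the rest. By mean TPM the order in PC9-AMG was AXL, MET, IGF1R, ROR1, MERTK, FGFR4, FGFR3, INSR and FGFR1. The order in PC9-BrM4 was AXL, MET, IGF1R, ROR1, FGFR3, FGFR4, INSR, MERTK and FGFR1. In PC9 it was AXL, MET, IGF1R, INSR, ROR1, FGFR4, FGFR3, MERTK and FGFR1. Neighbours whose libraries overlapped were MERTK and FGFR4, FGFR4 and FGFR3, and FGFR3 and INSR in PC9-AMG. In PC9-BrM4 they were AXL and MET, IGF1R and ROR1, ROR1 and FGFR3, FGFR4 and INSR, and MERTK and FGFR1; in PC9 they were INSR and ROR1, and ROR1 and FGFR4. EGFR, the receptor that carries the driver mutation of PC9, was at 188 and 155 TPM in PC9-AMG, 359 and 215 TPM in PC9-BrM4, and 204 and 204 TPM in PC9. In TPM, AXL was therefore of the same order as EGFR in PC9-AMG and PC9. The order of AXL before MET is also that of TPM. By per-base coverage MET lay above AXL in every library, at 99.9 against 59.2 in PC9 library 1. Of the 48 other human receptor tyrosine kinase genes, 21 passed the filter and 15 were listed at 0 in all libraries.

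**Figure D2:**
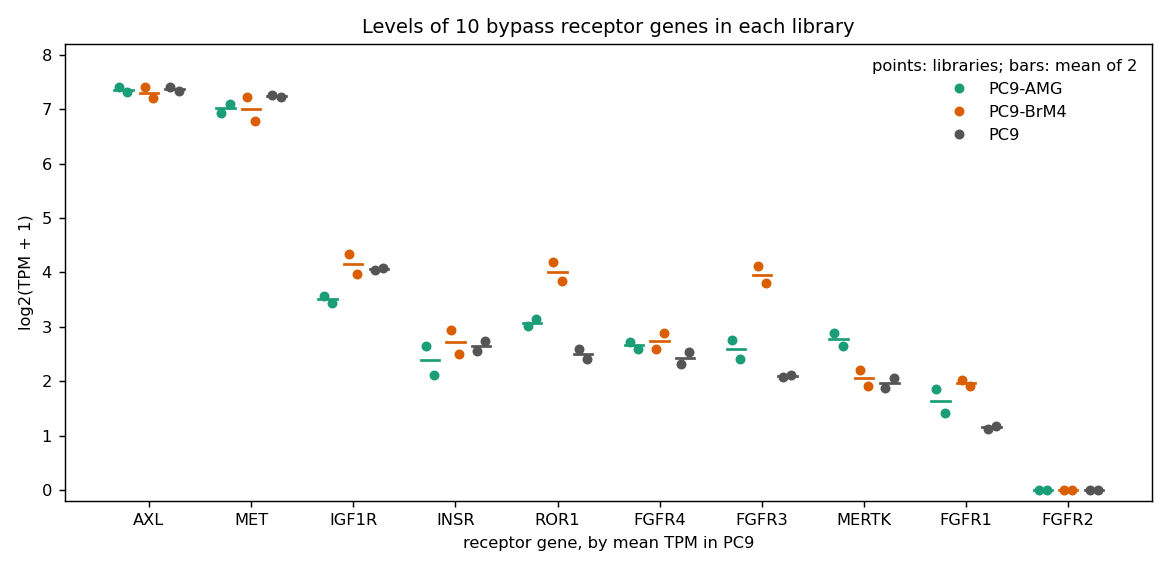
Level of each of the 10 receptor genes as log2(TPM + 1) (y axis) in every library, with points for the libraries and short lines for the mean of 2 (x axis: genes by their mean in PC9). AXL and MET lie above 6 in every library, FGFR3 and ROR1 are highest in PC9-BrM4, MERTK is highest in PC9-AMG, and FGFR2 is at 0.

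FGFR3, a receptor for FGF1, FGF9 and other FGF ligands that is also a known astrocyte gene, had the largest difference of the 10. It was at 5.74 and 4.34 TPM in PC9-AMG, 16.3 and 13.0 TPM in PC9-BrM4, and 3.24 and 3.35 TPM in PC9. No line overlapped another, with PC9-BrM4 highest and PC9 lowest. The log2 difference was -1.38 in PC9-AMG against PC9-BrM4 (SE 0.19, adjusted p = 0.00132) and 1.86 in PC9-BrM4 against PC9 (SE 0.19, adjusted p = 0.000206). PC9-AMG against PC9 was not called (0.48, 95% interval 0.06 to 0.91, adjusted p = 0.148). In TPM, the mean of PC9-BrM4 was 4.45 times that of PC9. Both calls held under each of the 20 alternatives tried, with adjusted p of at most 0.0259 in PC9-AMG against PC9-BrM4 and 0.00872 in PC9-BrM4 against PC9. FGFR3 made up 41.2% and 39.2% of the summed TPM of the 4 FGF receptor genes in PC9-AMG, 66.9% and 58.7% in PC9-BrM4, and 38.6% and 35.6% in PC9.

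An astrocyte marker moved in the same order as FGFR3. SLC1A3, a glutamate transporter gene of astrocytes, was at 0.652 and 0.361 TPM in PC9-AMG, 3.44 and 2.12 TPM in PC9-BrM4, and 0 in each PC9 library. It was lower in PC9-AMG than in PC9-BrM4 (-1.31, adjusted p = 0.0110, up to 0.102 under the alternatives) and higher in PC9-BrM4 than in PC9 (1.90, adjusted p = 0.00178). The astrocyte list as a whole did not: of its 8 genes 3 were listed at 0 in all libraries, 2 passed the filter, and its summed level was 30.3 to 34.0 TPM in PC9-AMG, 20.7 to 23.5 TPM in PC9-BrM4 and 22.4 to 23.7 TPM in PC9. ALDH1L1, at 18.3 to 32.8 TPM, gave most of it. GFAP and AQP4 were at 0 in both PC9-BrM4 libraries. The part of astrocyte RNA in the FGFR3 and ROR1 levels was not tested.

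FGFR1, the FGF receptor of mesenchymal cells, was the lowest member with a signal. It was at 2.62 and 1.67 TPM in PC9-AMG, 3.06 and 2.75 TPM in PC9-BrM4, and 1.19 and 1.26 TPM in PC9. The lines did not overlap, and PC9 was lowest. It was higher in PC9-BrM4 than in PC9 by 0.81 (SE 0.23, adjusted p = 0.0411). This call was lost with median centring (adjusted p = 0.0561), with FPKM (0.0505), without a filter (0.0620) and when any of the PC9-BrM4 or PC9 libraries was left out (0.0902 to 0.176). The other comparisons were not called, PC9-AMG against PC9-BrM4 at -0.33 (95% interval -0.85 to 0.19) and PC9-AMG against PC9 at 0.48 (-0.03 to 1.002).

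FGFR4, the receptor for FGF19 with the co-receptor KLB, was at 5.57 and 5.06 TPM in PC9-AMG, 5.04 and 6.37 TPM in PC9-BrM4, and 3.97 and 4.80 TPM in PC9. Both derivatives lay above PC9 without overlap and overlapped each other, and no comparison was called. The intervals reached from -0.50 to 0.34 in PC9-AMG against PC9-BrM4, from -0.19 to 0.66 in PC9-AMG against PC9 and from -0.11 to 0.74 in PC9-BrM4 against PC9. FGFR2, the receptor of epithelia for FGF7 and FGF10, was listed at 0 in all 6 libraries and was not tested. FGFRL1, a relative of the FGF receptors that has no kinase domain, was at 27.7 to 34.1 TPM and not called in any comparison (differences -0.05, -0.01 and 0.04).

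ROR1 had the second largest difference, with the lines in the same order as for FGFR3. It was at 7.05 and 7.86 TPM in PC9-AMG, 17.2 and 13.3 TPM in PC9-BrM4, and 5.06 and 4.28 TPM in PC9. Again PC9-BrM4 was highest and PC9 lowest, with no overlap. The log2 difference was -0.94 in PC9-AMG against PC9-BrM4 (SE 0.18, adjusted p = 0.00642) and 1.52 in PC9-BrM4 against PC9 (SE 0.18, adjusted p = 0.000463). The first was lost on leaving out PC9-AMG library 1 (adjusted p = 0.0515) or PC9-BrM4 library 1 (0.0563); the second held under all 20 alternatives (at most 0.0112). PC9-AMG against PC9 was not called (0.58, 95% interval 0.18 to 0.98, adjusted p = 0.0776) but was with median centring (0.0361), quantile normalization (0.0333) and FPKM (0.0347). Across the 6 libraries the Pearson correlation of ROR1 with FGFR3 was 0.968, a description over 3 lines that share libraries and scaling. Its relative ROR2 was listed at 0 in all libraries.

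Promoter windows from RefSeq (build GRCh38.p14, the same chromosome coordinates as hg38) are shown for the pair that moved together, FGFR3 and ROR1, and for MERTK, which did not follow them. Each runs from 250 bases before to 50 after the start of the gene, and 9 of the 10 members had such a window. Capitals mark a GC box (GGGCGG, on either strand, overlaps included), which 44.9% of all 35093 windows of this length hold.

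FGFR3 at chr4:1793043-1793342, plus strand: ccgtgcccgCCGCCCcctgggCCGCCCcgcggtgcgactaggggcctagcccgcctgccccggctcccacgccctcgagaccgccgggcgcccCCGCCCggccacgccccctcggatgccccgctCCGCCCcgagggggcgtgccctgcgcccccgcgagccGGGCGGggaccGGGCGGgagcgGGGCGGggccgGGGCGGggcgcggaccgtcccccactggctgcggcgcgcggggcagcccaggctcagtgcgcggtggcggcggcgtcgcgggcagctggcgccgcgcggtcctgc

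ROR1 at chr1:63773767-63774066, plus strand: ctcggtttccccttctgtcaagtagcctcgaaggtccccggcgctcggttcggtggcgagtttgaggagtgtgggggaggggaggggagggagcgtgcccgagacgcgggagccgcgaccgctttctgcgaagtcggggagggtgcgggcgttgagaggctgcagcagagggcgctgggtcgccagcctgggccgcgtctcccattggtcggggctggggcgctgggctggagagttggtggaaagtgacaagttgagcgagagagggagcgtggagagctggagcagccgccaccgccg

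MERTK at chr2:111898357-111898656, plus strand: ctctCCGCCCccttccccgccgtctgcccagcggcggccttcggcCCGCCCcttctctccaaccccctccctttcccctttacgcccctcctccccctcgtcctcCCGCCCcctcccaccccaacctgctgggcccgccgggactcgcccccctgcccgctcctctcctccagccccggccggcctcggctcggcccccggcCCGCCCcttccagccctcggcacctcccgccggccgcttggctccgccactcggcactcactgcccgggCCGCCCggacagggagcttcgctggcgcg

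The FGFR3 window held 8 GC boxes and 51 CpG dinucleotides, more CpG than 99.0% of all windows. The ROR1 window held 0 GC boxes and 29 CpG, and the MERTK window 5 GC boxes and 32 CpG. The 3 windows held no match on either strand to a TATA box (TATAAA, in 11.5% of all windows), an E-box (CACGTG, in 7.3%), an AP-1 site (TGACTCA, in 4.9%) or a TEAD site (GGAATG, in 14.0%).

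MERTK was the only member called in PC9-AMG against both other lines. It was at 6.38 and 5.30 TPM in PC9-AMG, 3.58 and 2.74 TPM in PC9-BrM4, and 2.67 and 3.18 TPM in PC9. Both PC9-AMG libraries lay above all others, and PC9-BrM4 and PC9 overlapped. The log2 difference was 0.72 in PC9-AMG against PC9-BrM4 (SE 0.20, adjusted p = 0.0360) and 0.80 in PC9-AMG against PC9 (SE 0.20, adjusted p = 0.0432). Both calls were near the threshold: the first was lost on leaving out any library (0.0570 to 0.153), and the second on leaving out any PC9-AMG or PC9 library (0.114 to 0.283). PC9-BrM4 against PC9 was not called (0.08, 95% interval -0.37 to 0.53). MERTK is a gene of microglia and other phagocytes. Of 11 microglia markers 8 were listed at 0 in all libraries, and the summed level was 13.0 to 16.4 TPM in PC9-AMG, 16.5 to 18.2 TPM in PC9-BrM4 and 10.4 to 10.8 TPM in PC9. ITGAM was called higher in PC9-AMG than in PC9 (0.79, adjusted p = 0.0340, up to 0.197 with a library left out) and in PC9-BrM4 than in PC9 (0.96, adjusted p = 0.00746, up to 0.0528). The astrocyte marker ALDH1L1 was, like MERTK, highest in PC9-AMG, at 32.8 and 29.6 TPM against 19.8 and 18.3 TPM in PC9-BrM4 and 23.1 and 21.8 TPM in PC9. The part of such cells in the MERTK level was not tested.

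AXL was at 168 and 159 TPM in PC9-AMG, 169 and 146 TPM in PC9-BrM4, and 169 and 159.8 TPM in PC9. All lines overlapped, and the intervals were the narrowest of the 9 genes: -0.17 to 0.28 in PC9-AMG against PC9-BrM4, -0.23 to 0.21 in PC9-AMG against PC9 and -0.29 to 0.16 in PC9-BrM4 against PC9. A change in AXL of 1.5-fold in either direction lay outside each of them. In TPM, AXL exceeded MERTK by 26.3 and 29.9 times in PC9-AMG, 47.3 and 53.2 times in PC9-BrM4, and 63.4 and 50.2 times in PC9. The ratio depends on the measure: per-base coverage in PC9-AMG library 1 was 72.8 for AXL and 5.25 for MERTK. TYRO3, the remaining TAM receptor, was at 10.7 to 13.1 TPM and not called (differences 0.07, 0.19 and 0.12).

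MET was at 122 and 136 TPM in PC9-AMG, 148.5 and 109 TPM in PC9-BrM4, and 151.6 and 149.4 TPM in PC9. The derivatives overlapped each other, and each of their libraries lay below both PC9 libraries. No comparison was called, with intervals of -0.29 to 0.32 in PC9-AMG against PC9-BrM4, -0.53 to 0.08 in PC9-AMG against PC9 and -0.54 to 0.06 in PC9-BrM4 against PC9. The MET-related receptor gene MST1R was at 24.5 and 17.6 TPM in PC9-AMG, 36.7 and 31.1 TPM in PC9-BrM4, and 25.1 and 25.6 TPM in PC9. It was lower in PC9-AMG than in PC9-BrM4 (-0.68, adjusted p = 0.0197), a call that was lost with some libraries left out (up to 0.153).

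IGF1R was at 10.9 and 9.83 TPM in PC9-AMG, 19.3 and 14.6 TPM in PC9-BrM4, and 15.4 and 16.0 TPM in PC9. PC9-AMG lay below both other lines, which overlapped. IGF1R fell by 0.65 in PC9-AMG against PC9-BrM4 (SE 0.16, adjusted p = 0.0212), a call lost without a filter (adjusted p = 0.0630). It was also lost without PC9-AMG library 1 (difference -0.72), PC9-AMG library 2 (-0.59) or PC9-BrM4 library 1 (-0.46). In PC9-AMG against PC9 the difference was of like size and not called (-0.56, 95% interval -0.92 to -0.20, adjusted p = 0.0639), although 7 of the 20 alternatives called it (lowest adjusted p = 0.0367, with the filter at 5 TPM). PC9-BrM4 against PC9 was not called (0.10, 95% interval -0.26 to 0.45).

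INSR was at 5.27 and 3.33 TPM in PC9-AMG, 6.71 and 4.66 TPM in PC9-BrM4, and 4.89 and 5.65 TPM in PC9. All lines overlapped and no comparison was called, with intervals of -0.86 to 0.18 in PC9-AMG against PC9-BrM4, -0.79 to 0.26 in PC9-AMG against PC9 and -0.44 to 0.60 in PC9-BrM4 against PC9. IGF1R exceeded INSR in every library, by 2.06 and 2.95 times in PC9-AMG, 2.88 and 3.14 times in PC9-BrM4, and 3.15 and 2.82 times in PC9. INSRR, the remaining gene of that family, was listed at 0.

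The members lie on 9 chromosomes in hg38 as the files give them: ROR1 on 1 (63774019 to 64181496), MERTK on 2 (111898614 to 112029368), FGFR3 on 4 (1793312 to 1808872), FGFR4 on 5 (177086872 to 177098142), MET on 7 (116672405 to 116798386), FGFR1 on 8 (38411138 to 38468834), FGFR2 on 10 (121478330 to 121598458), IGF1R on 15 (98648539 to 98964530), and INSR (7112255 to 7294000) and AXL (41219199 to 41261767) on 19. Each was set beside its neighbours, the 25 tested genes before it and the 25 after it. The neighbours of FGFR3 had a median difference of 0.07 in PC9-BrM4 against PC9, where FGFR3 itself differed by 1.86, and those of ROR1 had 0.16, where ROR1 differed by 1.52. The next genes beside FGFR3, TACC3 and LETM1, differed by 0.12 and 0.46 in PC9-BrM4 against PC9 and were not called. In PC9-AMG against PC9, LETM1 was called higher (0.57, adjusted p = 0.0485). TACC3, at 0.25, and FGFR3, at 0.48, were not called there. The neighbours of MERTK had -0.24 in PC9-AMG against PC9-BrM4 and -0.05 in PC9-AMG against PC9, where MERTK was at 0.72 and 0.80. For IGF1R they had -0.14 in PC9-AMG against PC9-BrM4, where IGF1R was at -0.65; 43 neighbours were available before the chromosome end.

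MET did lie among genes that were lower in PC9-BrM4. Of its 50 neighbours, 16 were called lower and 1 higher in PC9-BrM4 against PC9, with a median of -0.27 beside -0.24 for MET. In PC9-AMG against PC9 MET was at -0.23, while 2 of its neighbours were lower and 0 higher, with a median of -0.11. Of the 50 neighbours of AXL, 10 were lower and 3 higher in that comparison, with a median of -0.14 beside -0.06 for AXL, and in PC9-AMG against PC9-BrM4 15 were higher and 2 lower (median 0.28 beside 0.05). Of the 50 neighbours of FGFR4, 12 were higher and 1 lower in PC9-BrM4 against PC9 (median 0.24 beside 0.31). The copy number of these regions was not measured here.

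**Figure D3:**
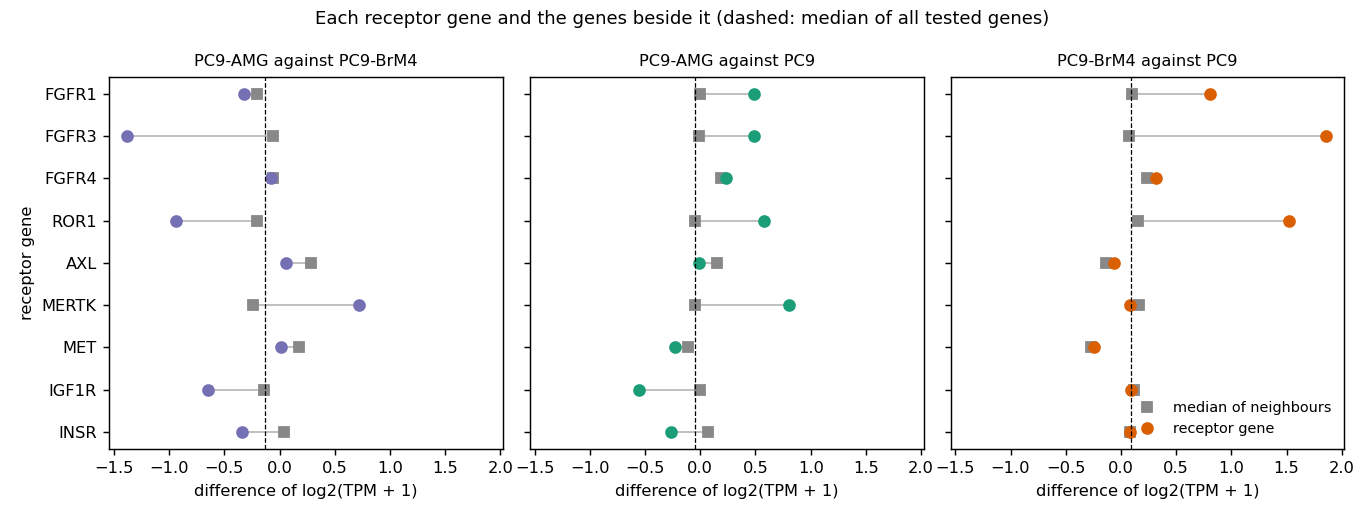
Difference of log2(TPM + 1) of each receptor gene (coloured circles) and the median of up to 50 tested genes beside it on its chromosome (grey squares), in 3 comparisons, with a dashed line at the median of all tested genes. FGFR3 and ROR1 lie far from their neighbours in PC9-BrM4 against PC9, whereas MET lies beside its own at -0.24 and -0.27.

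Of the ligands, HGF, which binds MET, and IGF1 were listed at 0 in all libraries, and IGF2 reached 0.244 TPM at most. FGF2 reached 0.717 TPM, FGF18 was at 0.838 to 1.21 TPM and FGF19, the ligand of FGFR4, at 0.232 to 1.43 TPM. Of the 24 FGF ligand and co-receptor genes 6 passed the filter and 13 were listed at 0. Of the 6, 0 were higher and 1 lower (KL) both in PC9-AMG against PC9-BrM4 and in PC9-AMG against PC9. In PC9-BrM4 against PC9, 1 was higher (FGFBP1) and 0 were lower. For all tested genes the shares higher and lower were 6.31% and 12.3%, 3.67% and 3.82%, and 9.89% and 6.45% in this order. The KL call against PC9 and the FGFBP1 call were lost with some libraries left out (adjusted p up to 0.195 and 0.130). GAS6, the shared ligand of AXL and MERTK, and WNT5A, the ligand of ROR1, were expressed. GAS6 was at 72.8 and 58.9 TPM in PC9-AMG, 84.3 and 87.0 TPM in PC9-BrM4, and 52.9 and 54.2 TPM in PC9. It was higher in PC9-BrM4 than in PC9 by 0.67 (adjusted p = 0.00497), and was not called in PC9-AMG against PC9-BrM4 (-0.38, adjusted p = 0.0505) or in PC9-AMG against PC9 (0.29, adjusted p = 0.167). PROS1, the other TAM ligand, reached 1.03 TPM and did not pass the filter. The list of TAM ligands and sheddases also holds GGCX and VKORC1. Of its 5 tested genes, 0 were higher and 1 lower (ADAM10, adjusted p = 0.00886) in PC9-AMG against PC9-BrM4. With a library left out ADAM10 lay between -0.77 and -0.43 there, and the call was lost with some. In PC9-AMG against PC9 0 were called, and in PC9-BrM4 against PC9 1 was higher (GAS6) and 0 were lower. The shares of all tested genes are those given above for the FGF list.

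WNT5A was lower than PC9 in both derivatives. It was at 26.8 and 30.1 TPM in PC9-AMG, 37.4 and 32.7 TPM in PC9-BrM4, and 56.2 and 52.2 TPM in PC9, with no overlap between a derivative and PC9. It fell by 0.91 in PC9-AMG against PC9 (adjusted p = 0.00451) and by 0.62 in PC9-BrM4 against PC9 (adjusted p = 0.00870), and with a library left out the adjusted p reached 0.0523 and 0.106. Of the 14 tested genes of the ROR list, 1 was higher and 5 were lower in PC9-AMG against PC9-BrM4, 0 and 3 in PC9-AMG against PC9, and 1 and 2 in PC9-BrM4 against PC9. Over all tested genes the shares were 6.31% and 12.3%, 3.67% and 3.82%, and 9.89% and 6.45% in the same order. VANGL2, a planar polarity gene, was at 9.16 and 7.06 TPM in PC9-AMG, 5.19 and 4.15 TPM in PC9-BrM4, and 9.16 and 9.81 TPM in PC9. It fell by 0.89 in PC9-BrM4 against PC9 (adjusted p = 0.0101, up to 0.0846 with a library left out).

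Binding proteins that hold IGF away from IGF1R were among the most abundant genes of the lists. IGFBP3 was at 1687 and 1741 TPM in PC9-AMG, 2240 and 2065 TPM in PC9-BrM4, and 2790 and 2840 TPM in PC9. It fell by 0.72 in PC9-AMG against PC9 (adjusted p = 0.00108) and by 0.39 in PC9-BrM4 against PC9 (0.00483, up to 0.0842 under the alternatives). IGFBP6, which prefers IGF2, fell by 1.41 in PC9-BrM4 against PC9, to 321 and 366 TPM against 907 and 920 TPM in PC9 (adjusted p of at most 0.00143 under the alternatives), and was higher in PC9-AMG than in PC9-BrM4 by 0.90. IGFBP7, a related protein, fell by 1.76 in PC9-BrM4 against PC9 and was higher in PC9-AMG than in PC9-BrM4 by 1.38. Of the 11 tested genes of this list, 2 were higher and 4 lower in PC9-AMG against PC9-BrM4, 0 and 3 in PC9-AMG against PC9, and 2 and 3 in PC9-BrM4 against PC9. Among all tested genes, 6.31% and 12.3%, 3.67% and 3.82%, and 9.89% and 6.45% were called higher and lower in that order of comparisons. The list's summed level was 2747 to 2792 TPM in PC9-AMG, 2996 to 3121 TPM in PC9-BrM4 and 4208 to 4293 TPM in PC9.

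Among genes that process HGF, HPN, a membrane protease that activates HGF, was at 17.5 and 15.1 TPM in PC9-AMG, 4.88 and 6.16 TPM in PC9-BrM4, and 10.02 and 11.3 TPM in PC9. It was higher in PC9-AMG than in PC9-BrM4 by 1.41 (adjusted p = 0.000561) and fell by 0.85 in PC9-BrM4 against PC9 (0.00852, up to 0.0898 with a library left out). CD44, a MET co-receptor, was higher in PC9-BrM4 than in PC9 by 0.69 and PLAU, the urokinase gene, fell by 0.60. Of the 8 tested genes, 2 were higher and 2 lower both in PC9-AMG against PC9-BrM4 and in PC9-BrM4 against PC9, and 0 were called in PC9-AMG against PC9. Shares of all tested genes called higher and lower were 6.31% and 12.3%, 9.89% and 6.45%, and 3.67% and 3.82% in that order. KL, the klotho co-receptor gene for endocrine FGFs, was at 0.556 and 0.488 TPM in PC9-AMG, 3.65 and 2.60 TPM in PC9-BrM4, and 1.93 and 2.14 TPM in PC9. It fell by 1.43 in PC9-AMG against PC9-BrM4 (adjusted p = 0.00314).

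Behind the receptors, the list of receptor inhibitors and feedback genes had 23 tested genes. In PC9-BrM4 against PC9, 5 of them were higher and 1 lower, beside 9.89% and 6.45% of all tested genes. SPRY2, a Sprouty inhibitor of the ERK pathway, was at 22.7 and 26.4 TPM in PC9-AMG, 48.9 and 49.4 TPM in PC9-BrM4, and 22.5 and 26.4 TPM in PC9 (0.98 in PC9-BrM4 against PC9, adjusted p = 0.000984). IL17RD, an inhibitor of FGF receptors also called Sef, was at 5.31 and 4.96 TPM in PC9-AMG, 14.2 and 11.5 TPM in PC9-BrM4, and 7.12 and 6.75 TPM in PC9 (0.80 in PC9-BrM4 against PC9, adjusted p = 0.0107, up to 0.0947 with a library left out). Of the same 23 genes, 0 were higher and 4 lower in PC9-AMG against PC9-BrM4, beside 6.31% and 12.3% of all tested genes. In PC9-AMG against PC9, 0 were higher and 1 lower, beside 3.67% and 3.82%. Of the 26 tested adaptors and effectors, 1 was higher and 5 lower in PC9-AMG against PC9-BrM4, 0 and 0 in PC9-AMG against PC9, and 2 and 1 in PC9-BrM4 against PC9. The same shares of all tested genes stand beside these counts: 6.31% and 12.3%, 3.67% and 3.82%, and 9.89% and 6.45%. IRS2, the adaptor of IGF1R and INSR, was at 28.6 and 30.2 TPM in PC9-AMG, 56.1 and 45.3 TPM in PC9-BrM4, and 35.0 and 34.6 TPM in PC9 (-0.76 in PC9-AMG against PC9-BrM4, adjusted p = 0.00375).

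**Figure D4:**
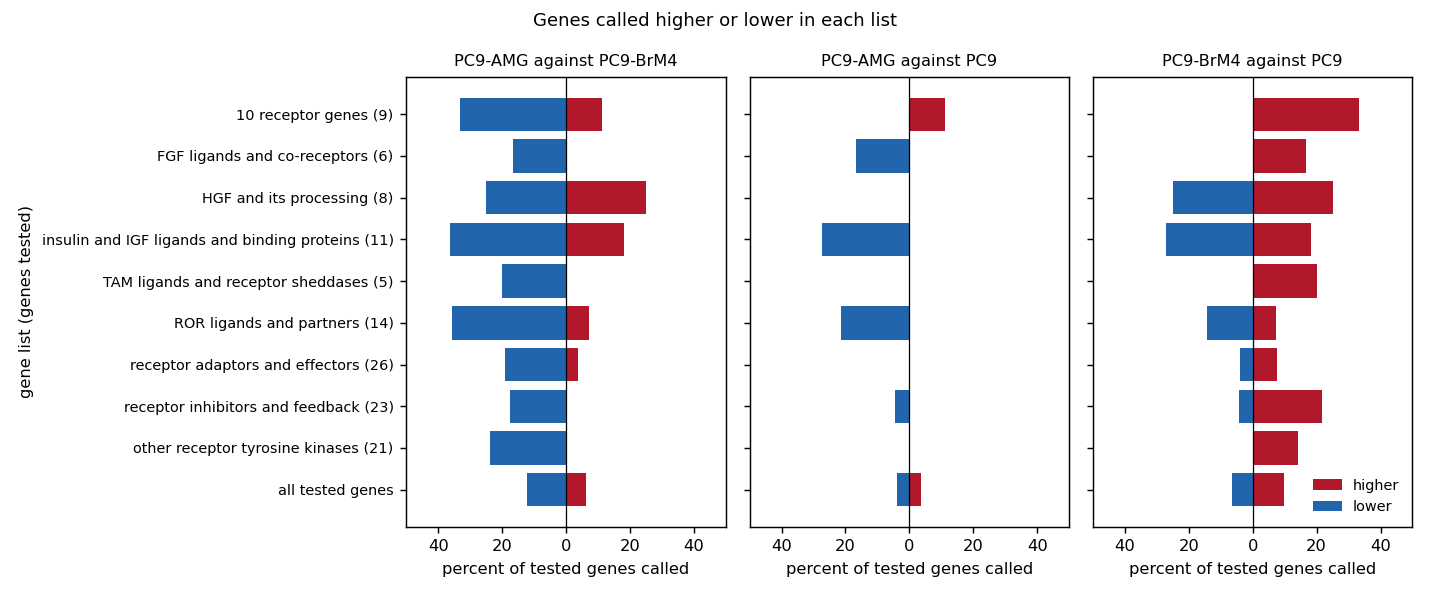
Percent of the tested genes of each list that limma called higher (red, to the right) or lower (blue, to the left) in the 3 comparisons, with the number of tested genes in brackets and all tested genes in the lowest bar. Lists hold between 5 and 26 tested genes, so a single gene moves a bar visibly.

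Of the 21 other receptor tyrosine kinases tested, 0 were higher and 5 lower in PC9-AMG against PC9-BrM4, beside 6.31% and 12.3% of all tested genes. None was called in PC9-AMG against PC9 (7.49% of all genes). In PC9-BrM4 against PC9, 3 were higher and 0 lower, beside 9.89% and 6.45%. EGFR was among the 5 lower genes (-0.70, adjusted p = 0.0350). That call was lost under 8 of the 20 alternatives, median centring (adjusted p = 0.0709) among them. EPHA4 had the largest difference of those called, at 2.08 and 2.16 TPM in PC9-AMG, 12.7 and 11.1 TPM in PC9-BrM4, and 2.57 and 3.29 TPM in PC9 (1.72 in PC9-BrM4 against PC9, adjusted p = 0.000304). In PC9-AMG against PC9-BrM4 EPHA4 was at -2.04 (adjusted p = 0.000134), beside -1.38 for FGFR3 and -0.94 for ROR1. PTK7 and DDR1, the other 2 called higher in PC9-BrM4 against PC9, rose there by 0.75 and 0.56. Both calls were lost with some libraries left out, where PTK7 lay between 0.66 and 0.84 and DDR1 between 0.46 and 0.66. The DDR1 call was also lost without a filter (adjusted p = 0.0562) and without a variance trend (0.0649).

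The genes whose log2(TPM + 1) followed a called member most closely over the 6 libraries, by Pearson r, were AMH (0.999) and ICAM1 (0.998) for FGFR3, RTKN2 (0.998) and DCDC2 (0.996) for ROR1, and ADAMTSL4 (0.996) and FASN (0.993) for FGFR1. For MERTK they were NRIP3 (0.998) and CCDC22 (0.993), and for IGF1R TMEM67 (0.997) and TRAK1 (0.997). With 6 libraries such values are common: 424 genes exceeded 0.95 with FGFR3, 310 with ROR1, 339 with IGF1R, 173 with FGFR1 and 57 with MERTK.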

How the data were processed

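Messenger RNA of 6 libraries was analysed, 2 per line. Per the labels' protocols, total RNA was extracted with TRIzol and made into stranded mRNA libraries. The submitters' processing notes name HISAT2 2.1.0, StringTie 1.3.4d and build hg38; the annotation and filters are not given in the sources used here. The deposited library tables hold TPM, computed by the authors and scaled to the same total in each library. The authors' FPKM in the deposited tables served as an alternative. Coverage, per the file headers the per-base read coverage of a gene, is not scaled to depth. In the deposited table over all libraries, 98.9% of genes equal the library tables within 0.001 TPM, the members included; each member has 1 row per library table. TPM of genes with several rows was summed. All 9 members above 0 passed the filter in every library.

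A mean per line was fitted to log2(TPM + 1), a pseudocount of 1, over all 6 libraries with limma 3.58.1 in R 4.3.3, with a variance trend (3 residual and 6.81 prior degrees of freedom), two-sided. The script was tested on simulated data. Fold changes on this scale understate the change of low genes. The members and the gene lists were chosen with earlier results of these data known. Named genes are all members, called genes of each list with the largest differences (at most 3 per list and comparison), 13 fixed ligand and receptor genes, and the 2 genes most like each called member; the text gives a selection. Genes beside a member on its chromosome (TACC3 and LETM1) were named after their values were seen. The alternatives were other scalings, pseudocounts, filters, FPKM, other moderation, a replicate block, the 4 libraries compared and leaving out each library; leaving out small-RNA genes was added after the data were seen. The labels do not say what the replicate numbers stand for, and same-numbered libraries did not deviate together (r of -0.04 to 0.03 across genes). Results of a few listed genes are not reported here.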

Additional observations from a re-analysis of the deposited data

How the results depend on the processing

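0 of the 8 called differences of members changed sign under the alternatives, and 9 of the 19 that were not called did; of 537 member results under an alternative, 28 lost and 10 gained a call. The number of members called in PC9-AMG against PC9, 1 with the fit as described, was 0 with a pseudocount of 0.1, without a filter or without a variance trend, and 0 to 2 when a library was left out. It was 2 with median centring, quantile normalization, the filter at 5 TPM, robust moderation, the 4 libraries compared or no small-RNA genes, and 3 with FPKM. In PC9-AMG against PC9-BrM4 it was 4, against 2 without a filter and 1 to 3 with a library left out. Of all genes, 1096 were called in PC9-AMG against PC9, against 250 without a filter, 325 without a variance trend and 131 to 1152 with a library left out. In PC9-AMG against PC9-BrM4, 2720 were called, against 1799 without a filter and 1024 to 2886 with a library left out. In PC9-BrM4 against PC9, 3 members were called, 2 to 3 with a library left out. There, 2389 were called, against 892 to 2383 with a library left out. In fits without a library, its line keeps a single one that is assumed to vary like the others. The cause of these changes, the smaller number of libraries included, was not tested. With the replicate block 1298, 2905 and 2483 genes were called in PC9-AMG against PC9, PC9-AMG against PC9-BrM4 and PC9-BrM4 against PC9, and 0 of 27 member calls changed. No counts were given, so what depth limits cannot be stated.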
